A study of Homo sapiens with 8 samples.

Results

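The 10 genes described here are JUN, JUNB, JUND, FOS, FOSL1, FOSL2, EGR1, IER3, KLF2 and KLF6, chosen by name as AP-1 subunits and other immediate-early genes. They are 10 of the 15613 genes that could be paired with a probe in the deposited tables. Their levels were compared in shZNF395 cells, which carry a hairpin that targets the transcript of ZNF395, a zinc finger protein (n = 4 arrays), and in shControl cells, which carry a control hairpin (n = 4 arrays). Both groups are MDA-LM2-shTARBP2 cells, a lung-metastasising line derived from human MDA-MB-231 breast cancer cells, in which TARBP2, an RNA-binding partner of Dicer, is itself a hairpin target, so the controls carry that hairpin too. Hairpins were delivered by lentivirus and the cells selected, and the labels place RNA extraction 48 h after transfection. The labels do not say whether the replicates were separate cultures or different hairpins, so p-values measure the spread between these arrays, which may be technical. The series' design text calls the control cells mock-transfected.

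AP-1 is a dimeric transcription factor in which a Jun protein pairs with another Jun protein or with a Fos protein through a basic leucine zipper and binds the DNA sequence TGACTCA or the related TGACGTCA. Immediate-early genes are transcribed within minutes of a growth factor, cytokine or stress signal without new protein synthesis, mainly through MAP kinases acting on serum response factor, its ternary complex partners and Jun itself. In breast cancer cells AP-1 is known for driving matrix metalloproteinase, cytokine and invasion genes. EGR1, KLF2 and KLF6 are zinc finger transcription factors. IER3 is an immediate-early protein of stress and survival signalling and is not a DNA-binding factor, so 9 of the 10 genes encode transcription factors.

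The promoter sequences that follow belong to JUNB, JUND and KLF6, which were higher in shZNF395 cells, and to FOS, which was lower, and they show how differently these genes are built upstream of their start. Each is the 250 bases before the transcription start from RefSeq (GRCh38.p14), 5′ to 3′ on the gene's own strand. Capitals mark a match on either strand to TGACTCA, TGACGTCA, TGACATCA (the Jun-type variant of the site), the CArG box bound by serum response factor, or TATAA. In FOS the capitals join a TATAA on each strand, which overlap.
JUNB, chr19:12791236-12791485, plus strand: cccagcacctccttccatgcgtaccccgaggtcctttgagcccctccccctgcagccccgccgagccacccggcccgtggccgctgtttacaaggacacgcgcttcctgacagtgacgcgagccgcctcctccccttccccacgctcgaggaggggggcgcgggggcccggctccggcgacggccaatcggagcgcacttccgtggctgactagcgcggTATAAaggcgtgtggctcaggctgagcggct
JUND, chr19:18281623-18281872, minus strand: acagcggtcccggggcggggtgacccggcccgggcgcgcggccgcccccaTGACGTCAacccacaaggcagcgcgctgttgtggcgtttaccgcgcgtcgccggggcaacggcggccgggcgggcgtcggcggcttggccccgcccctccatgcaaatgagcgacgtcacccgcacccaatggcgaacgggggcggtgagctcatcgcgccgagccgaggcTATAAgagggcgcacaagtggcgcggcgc
KLF6, chr10:3785210-3785459, minus strand: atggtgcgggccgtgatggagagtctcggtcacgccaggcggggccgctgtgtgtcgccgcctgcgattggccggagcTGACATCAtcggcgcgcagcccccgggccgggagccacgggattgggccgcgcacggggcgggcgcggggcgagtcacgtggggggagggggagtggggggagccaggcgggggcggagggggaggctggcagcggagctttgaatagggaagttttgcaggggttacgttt
FOS, chr14:75278578-75278827, plus strand: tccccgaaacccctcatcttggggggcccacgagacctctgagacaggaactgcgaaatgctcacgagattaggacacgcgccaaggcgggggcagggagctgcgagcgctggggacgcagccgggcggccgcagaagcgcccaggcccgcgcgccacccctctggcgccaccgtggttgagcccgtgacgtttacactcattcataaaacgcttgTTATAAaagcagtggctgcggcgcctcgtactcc

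Of the 10 genes, 8 had a promoter in the RefSeq table. TGACATCA occurred in the windows of JUN, from 67 to 60 bases before the start, and KLF6, from 172 to 165 bases before it, against 2.37% of all 35116 promoters over the same 250 bases. TGACGTCA occurred in JUND alone of the 8, from 200 to 193 bases before the start, against 1.65% of all promoters. The CArG box occurred in EGR1 alone of the 8, where there are 2, the nearer one ending 74 bases before the start, against 1.16% of all promoters. TGACTCA was in 0 of the 8 windows, against 4.2% of all promoters, and TATAA was in the 4 windows of JUNB, JUND, FOS and KLF2, against 18.9%. A match describes these letters in this window and is not a binding site. Bases farther upstream were not searched, so a motif absent from a window may still lie beyond it.

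Gene expression was read on Illumina BeadChips. The values given are log2 intensities after background correction and quantile normalization, and a probe counts as detected on an array at a detection p under 0.01. The arrays detected 16476 to 17406 of their 47323 probes, and the median raw signal was between 53.2 and 57.1. Detected probes numbered 17191 on shZNF395 3 against 16834 to 16882 on the other shZNF395 arrays, and 16476 on shControl 3 against 17265 to 17406 on the other shControl arrays, so values without both arrays numbered 3 are also given. ZNF395 averaged 9.08 ± 0.096 in shZNF395 cells and 9.89 ± 0.116 in shControl cells (SD, n = 4 each), a level of 57.3% of the control (limma adjusted p = 1.01e-05). ESR1, PGR, CDH1, GATA3 and FOXA1, luminal and epithelial genes that MDA-MB-231 cells lack, were below detection on all 8 arrays, and CD44, the 1 paired gene of the 5 expected in these cells, was detected on all 8.

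The Jun genes JUNB and JUND, the stress gene IER3 and KLF6 were higher in shZNF395 cells, and FOS, FOSL1 and KLF2 were lower. The rises were between 1.39-fold for KLF6 and 1.87-fold for JUNB, and the falls left FOSL1 at 72.2%, KLF2 at 64.6% and FOS at 63.6% of the control level. JUN, FOSL2 and EGR1 did not pass the test. Thus 4 of the 10 genes were called higher and 3 lower at a limma adjusted p under 0.05, beside 25.3% of the 17184 detected probes called higher and 30.0% called lower. Over all detected probes 55.4% were called, so a call is common in these data, and the count of 7 among 10 shows nothing particular to these genes. The groups did not overlap for 7 of the 10 genes, beside 49.0% of detected probes. The median log2 difference of the 10 genes was 0.23, beside -0.046 over all detected probes. All 10 passed the detection filter, each is read by 1 paired probe, and other probes of these genes were not analysed here.

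**Figure D1:**
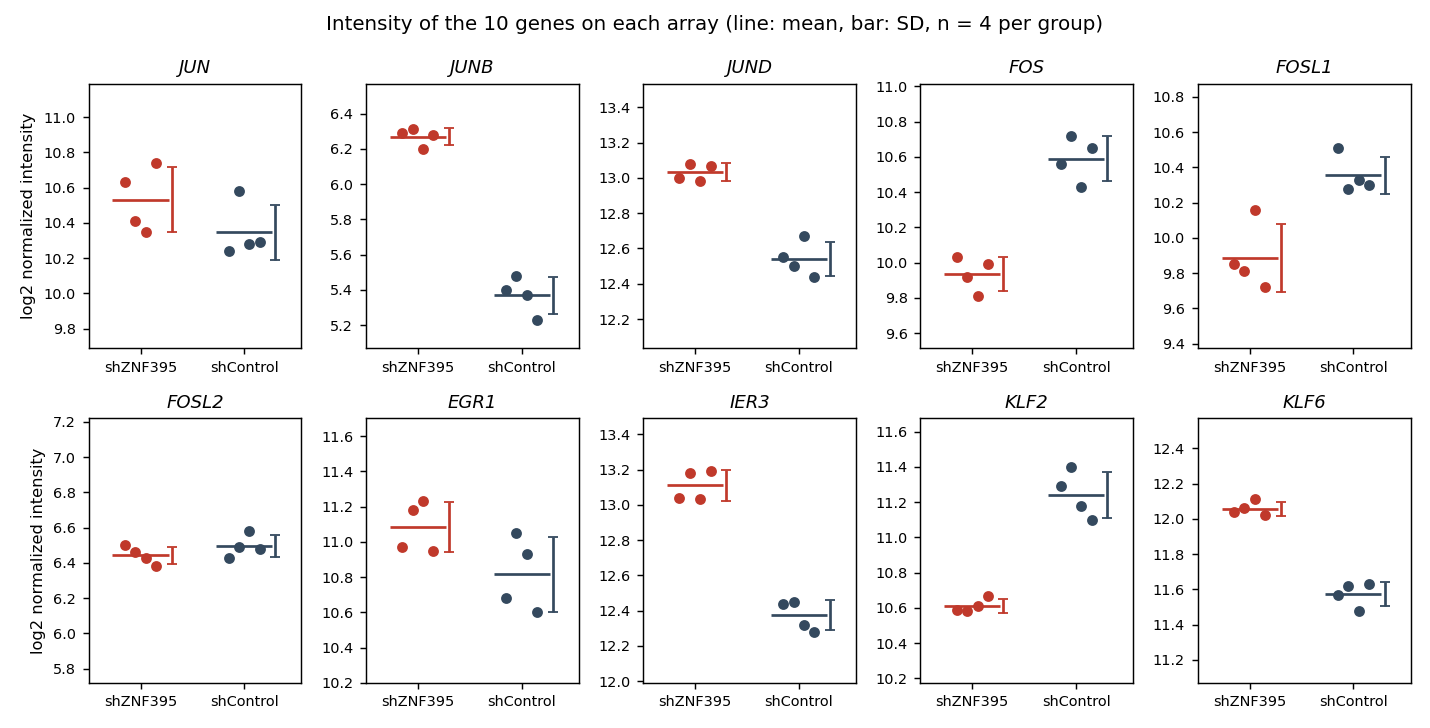
Log2 normalized intensity (vertical axis, the same span of 1.5 units in every panel) of each of the 10 genes on the 4 shZNF395 arrays (red, left) and the 4 shControl arrays (dark blue, right); points are arrays in replicate order, lines are means and bars are SD. JUNB, JUND, IER3 and KLF6 lie higher and FOS, FOSL1 and KLF2 lower in shZNF395 with no overlap, while JUN, FOSL2 and EGR1 overlap.

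Of the Jun subunits, JUNB and JUND were called higher. JUNB, which usually restrains c-Jun activity and can replace it in some dimers, measured 6.29, 6.31, 6.20 and 6.28 on shZNF395 arrays 1 to 4, against 5.40, 5.48, 5.37 and 5.23 on shControl arrays 1 to 4. The lowest shZNF395 array lay 0.72 above the highest shControl array. This is a log2 difference of 0.90 (SE 0.0681, 95% confidence interval 0.75 to 1.05, limma adjusted p = 1.7e-06). The probe is dim: its raw signals were 106.0 to 112.7 in shZNF395 cells and 66.2 to 76.2 in shControl cells, where the typical undetected probe (median of probes with detection p over 0.5) read 40.9 to 44.3, and it was detected on 4 of 4 shZNF395 and 3 of 4 shControl arrays. The size of the JUNB difference therefore depends on the background step: it was 0.49 without background correction and 0.56 with an offset of 50, and it passed the test in each case. With the background as corrected here JUNB had the largest difference of the 10 genes. It lay below IER3 without background correction (0.49 against 0.73 for IER3), with an offset of 50 (0.56 against 0.74) and with the authors' normalized values (0.62 against 0.73).

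JUND, the Jun subunit that is expressed steadily in most resting cells and is least dependent on acute signals, was read by a bright probe. It measured 13.00, 13.08, 12.98 and 13.07 on the shZNF395 arrays, against 12.55, 12.50, 12.67 and 12.44 on the shControl arrays. The groups were separated by 0.31, with shControl 3 the nearest control array. It was higher by 0.49 (SE 0.0668, limma adjusted p = 0.000118), a 1.4-fold rise.

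JUN, which encodes c-Jun, the strongest activator among the Jun proteins, did not pass the test. It measured 10.63, 10.41, 10.35 and 10.74 on the shZNF395 arrays, against 10.24, 10.58, 10.28 and 10.29 on the shControl arrays. The groups overlap through shControl 2, which exceeded 2 of the shZNF395 arrays and stood well above the other controls. The log2 difference was 0.19 with a 95% confidence interval of -0.04 to 0.42 (limma adjusted p = 0.149), and without shControl 2 it was 0.26 (adjusted p = 0.0489). The interval holds 0 and overlaps that of JUND (0.34 to 0.64), and JUN and JUND were not tested against each other.

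Of the Fos subunits, which cannot pair with one another and reach DNA through Jun, FOS and FOSL1 fell. FOS, which encodes c-Fos, the classic serum-induced subunit with a transactivation domain, measured 10.03, 9.92, 9.81 and 9.99 on the shZNF395 arrays, against 10.56, 10.72, 10.43 and 10.65 on the shControl arrays. The groups were separated by 0.40. FOS had a log2 difference of -0.65 (SE 0.0792, limma adjusted p = 5.17e-05).

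FOSL1 encodes Fra-1, the Fos protein that prevails in mesenchymal and invasive breast cancer cells. It measured 9.85, 9.81, 10.16 and 9.72 on the shZNF395 arrays, against 10.51, 10.28, 10.33 and 10.30 on the shControl arrays. The groups came within 0.12 of each other at shZNF395 3. The log2 difference was -0.47 (SE 0.0975, limma adjusted p = 0.00195), and -0.57 without both arrays numbered 3.

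FOSL2, which encodes the related Fra-2, measured 6.50, 6.46, 6.43 and 6.38 on the shZNF395 arrays, against 6.43, 6.49, 6.58 and 6.48 on the shControl arrays. The groups overlap over most of their range. The log2 difference of -0.05 did not pass (limma adjusted p = 0.476). Its 95% confidence interval of -0.19 to 0.08 stops short of the falls measured for FOS and FOSL1. This probe is dim, with raw signals of 112.6 to 124.0 in shZNF395 cells and 113.9 to 129.3 in shControl cells. The typical undetected probe read 40.9 to 44.3. How far background shrinks a difference on this probe was not tested.

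The remaining Fos subunit, FOSB, was not among the 10 genes and was singled out after its values were seen. It measured 8.46, 8.85, 8.23 and 8.43 in shZNF395 cells, against 9.18, 9.66, 9.27 and 9.14 in shControl cells. The groups did not overlap, and the log2 difference was -0.82 (SE 0.144, limma adjusted p = 0.000657).

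EGR1, a zinc finger factor induced by serum and growth factors through CArG boxes, measured 10.97, 11.18, 11.23 and 10.95 on the shZNF395 arrays, against 10.68, 11.05, 10.93 and 10.60 on the shControl arrays. All shZNF395 values lay in the upper part of the joint range, but shControl 2 exceeded shZNF395 arrays 1 and 4. The log2 difference of 0.27 (SE 0.109, 95% confidence interval 0.03 to 0.51) did not pass, with limma adjusted p = 0.0583. It passed under 5 of 19 processing alternatives, among them the removal of shControl 2 (0.34, adjusted p = 0.0204).

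IER3, induced by NF-kappaB and stress and known for limiting cell death, was called higher. It measured 13.04, 13.18, 13.03 and 13.19 on the shZNF395 arrays, against 12.44, 12.45, 12.32 and 12.28 on the shControl arrays. The groups were separated by 0.58. IER3 rose by 0.74 in log2 units (SE 0.0699, limma adjusted p = 8.81e-06), or 1.67-fold, on a bright probe with raw signals of 7622.5 to 9605.3 in shZNF395 cells and 4545.4 to 5788.3 in shControl cells.

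The Krüppel-like factors moved in opposite directions. KLF2, known best as a flow-induced factor of endothelium and a quiescence factor of T cells, measured 10.59, 10.58, 10.61 and 10.67 on the shZNF395 arrays, against 11.29, 11.40, 11.18 and 11.10 on the shControl arrays. The highest shZNF395 array lay 0.43 below the lowest shControl array, and the log2 difference was -0.63 (SE 0.0736, limma adjusted p = 3.96e-05).

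KLF6, a widely expressed factor induced by injury and described as a tumour suppressor, measured 12.04, 12.06, 12.11 and 12.02 on the shZNF395 arrays, against 11.57, 11.62, 11.48 and 11.63 on the shControl arrays. The groups were separated by 0.39. KLF6 was higher by 0.48 (SE 0.0602, limma adjusted p = 6.74e-05).

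**Figure D2:**
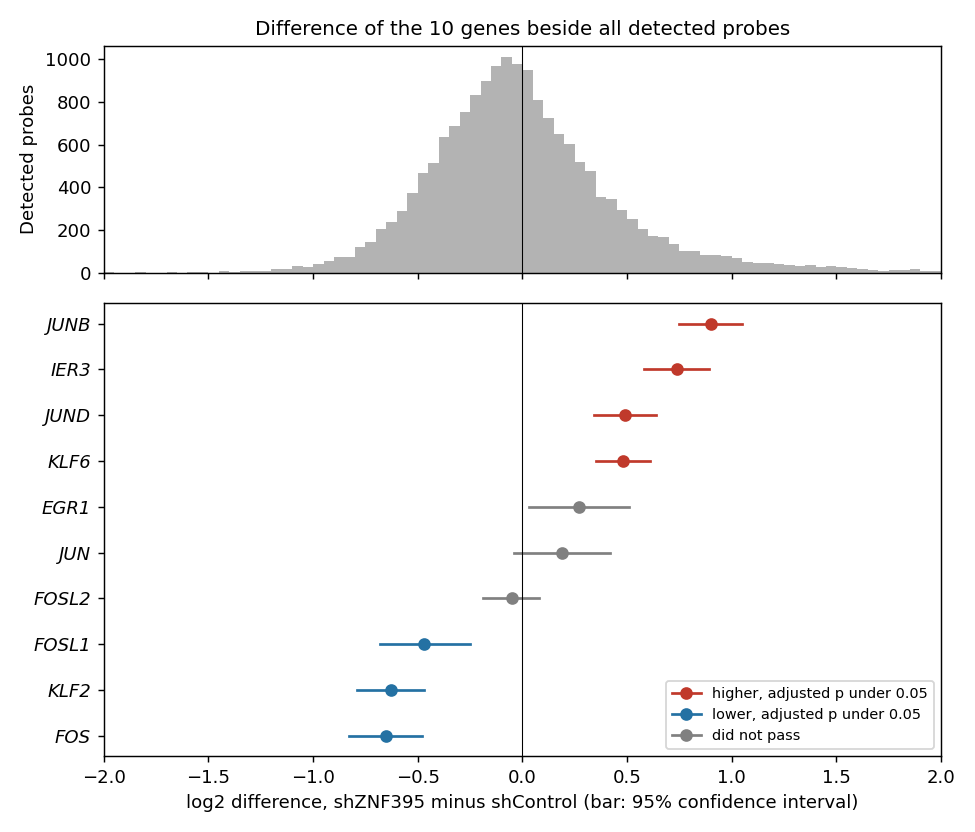
The upper panel counts the 17184 detected probes by log2 difference, shZNF395 minus shControl, leaving out 64 beyond 2 units; the lower panel gives the difference of each of the 10 genes with its 95% confidence interval, in red where called higher, in blue where called lower and in grey where it did not pass. The called genes lie between -0.65 and 0.90, on the flanks of the distribution and not in its tails.

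Larger differences than those of the called genes were present elsewhere on the array. 5.72% of detected probes had a larger absolute difference than JUNB, 9.23% than IER3, 12.5% than FOS and 24.1% than FOSL1. Without both arrays numbered 3 the same 4 and 3 genes were called. The log2 differences were then 0.92 for JUNB, 0.75 for IER3, 0.55 for JUND and 0.43 for KLF6, and -0.66 for FOS, -0.65 for KLF2 and -0.57 for FOSL1. JUN (0.23), EGR1 (0.25) and FOSL2 (-0.02) did not pass there either.

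The 10 genes did not vary evenly over the arrays of a group. ShControl 2 gave the highest control value for 6 of the 10 genes, namely JUN, JUNB, FOS, EGR1, IER3 and KLF2, beside 21% of all detected probes. ShZNF395 4 and shZNF395 3 gave the lowest shZNF395 value for 4 and 5 of the 10 genes, beside 23% and 33.8% of detected probes. ShControl 4 gave the lowest control value for 5 of the 10 genes, beside 24.7% of detected probes. This is a description of 8 arrays, and 10 genes that share their arrays are not independent.

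The authors' deposited table has a scale that shrinks differences at low signal, and the entries it holds for these probes have the same signs. Probes were paired with these entries by matching these same values, so the like signs largely follow from the pairing and are no separate check. The authors' deposited table gives 0.7549 for IER3, 0.5037 for JUND, 0.4782 for KLF6, 0.3280 for JUNB, 0.2581 for EGR1 and 0.1785 for JUN. It gives -0.6168 for FOS, -0.6139 for KLF2, -0.4340 for FOSL1 and -0.0252 for FOSL2, also in the authors' deposited table. JUNB has the fourth largest rise there and the largest in the intensities used here.

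By likeness to JUNB, the nearest named genes were A4GALT, PLA2G15 and ZNF816, with root mean square distances of 0.0564, 0.0578 and 0.0578 log2 units over the 8 arrays after each gene was centred on its own mean. Their log2 differences were 0.87, 0.84 and 0.83, each with a limma adjusted p of at most 2.99e-06. A4GALT encodes the glycosyltransferase that makes the Gb3 glycolipid and PLA2G15 a lysosomal phospholipase. With 2 groups of 4 arrays, this distance mostly reflects the difference between the groups. The 3 genes were picked for their likeness to JUNB on these arrays, so their differences and p-values follow from that choice.

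In the wider immediate-early group more genes were called higher than lower. Of 35 other immediate-early genes, 18 could be measured, of which 8 were called higher and 3 lower while 7 did not pass. Their median log2 difference was 0.13, beside 0.00 over all 7739 named genes. Over these named genes 58.1% were called, 30.1% higher and 28.0% lower. In the list, 6 genes were called higher and 3 lower without normalization between arrays. TRIB1, a pseudokinase that directs protein degradation, was higher by 0.88, ZFP36, which encodes the mRNA-destabilising protein tristetraprolin, by 0.85 and the antiproliferative gene BTG1 by 0.72. DUSP1, the phosphatase that switches off MAP kinases, was higher by 0.53 and ID3, an inhibitor of helix-loop-helix factors, was lower (log2 difference -0.98); both were singled out after their values were seen. EGR2 was below detection on all 4 shControl arrays and detected on all 4 shZNF395 arrays, at least 1.44-fold higher, and was also singled out afterwards. It passed the detection filter only through its shZNF395 arrays, so the filter itself set its direction. Its call is no separate support, although EGR2 is counted among the 8 called higher. NR4A1, NR4A3, ATF3, BTG2 and KLF10 were below detection on all 8 arrays on their paired probes. Such bounds set the brighter group's mean against the lowest detected signal of each dim array, or the dim probe's own value where that is higher.

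Other dimer partners of AP-1 went both ways, with 2 of 11 measured genes higher, 2 lower and a median of -0.04. Thus 36.4% were called, beside 58.1% of all named genes. BATF, a small partner of Jun proteins best known from lymphocytes, measured 5.80, 5.87, 5.68 and 6.05 in shZNF395 cells. It was below detection on all 4 shControl arrays, at least 1.51-fold higher. BATF too passed the detection filter only through its shZNF395 arrays, which set its direction, and it is counted among the 2 called higher. NFE2L1, a leucine zipper factor of the proteasome response, was higher by 0.68 and BATF3 was lower, with a log2 difference of -0.41. FOSB is the other gene of this list called lower.

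Other KLF and SP factors counted 2 higher and 2 lower of 6 measured, with a median of -0.03. Thus 66.7% were called, beside 58.1% of all named genes. KLF9, a factor known as a glucocorticoid and thyroid hormone target, measured 9.25, 9.31, 9.15 and 9.44 in shZNF395 cells, against 7.47, 7.69, 7.68 and 7.68 in shControl cells. Its rise of 1.66 (SE 0.0804, limma adjusted p = 7.34e-08) was larger than that of KLF6. SP1 and SP2, which bind GC boxes, were lower, with log2 differences of -0.36 and -0.51.

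Serum response and ternary complex factors act upstream of the immediate-early genes. Their list also holds CRTC2, CRTC3, NAB1 and NAB2, which are not such factors. Of its 10 measured genes 4 were called lower and 1 higher, beside 28.0% and 30.1% of all named genes. The median log2 difference was -0.19. CRTC3 (log2 difference -0.38) is counted among the 4 called lower. SRF, the serum response factor itself, measured 10.43, 10.44, 10.56 and 10.40 in shZNF395 cells, against 10.93, 10.90, 10.94 and 10.84 in shControl cells. Its log2 difference was -0.45 (limma adjusted p = 0.000124), and its partner ELK1 had -0.43 (limma adjusted p = 0.000144). NAB1, a corepressor of EGR proteins and the 1 gene of this list called higher, was higher by 0.52.

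In the MAP kinase cascade 5 of 17 measured genes were called lower and 2 higher, and the median was -0.08. Calls made up 41.2% of the list, beside 58.1% of all named genes. RPS6KA5, a kinase that phosphorylates histone H3 at immediate-early genes, had a log2 difference of -0.65. MAP3K8, a kinase that links NF-kappaB signals to ERK, was below detection on all 4 shControl arrays. It measured 6.15, 6.36, 5.82 and 5.85 in shZNF395 cells, at least 1.73-fold higher. Only its shZNF395 arrays brought MAP3K8 past the detection filter, which set its direction, and it is counted among the 2 called higher. These are transcript levels, and kinase activity was not measured. Without normalization between arrays 3 genes of the cascade were called lower.

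Of 7 measured genes for AP-1 turnover and cofactors, 3 were called lower and 2 higher, and the median was 0.11. Calls made up 71.4% of the list, beside 58.1% of all named genes. Only 1 gene of the list was called higher without normalization between arrays, and 3 were called lower. The coactivator CREBBP had a log2 difference of -0.45 and MEN1, whose product menin binds JunD, of -0.30, while ITCH, a ubiquitin ligase for Jun proteins, was higher by 0.39.

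Genes listed as textbook AP-1 targets included 8 called higher and 2 called lower of 17 measured, and their median was 0.10. The share called, 58.8%, was close to the 58.1% of all named genes, of which 30.1% were called higher and 28.0% lower. In the list, 7 genes were called higher and 2 lower without normalization between arrays. The stromelysin MMP3 measured 9.41, 9.53, 9.36 and 9.51 in shZNF395 cells, against 6.14, 6.25, 6.07 and 6.00 in shControl cells, a 10.1-fold rise. The collagenase MMP1 rose 4.41-fold (limma adjusted p = 1.02e-08). SPP1 (osteopontin) was below detection on all 4 shControl arrays and at least 6.44-fold higher. SPP1 met the detection filter through its shZNF395 arrays alone, so the filter fixed its direction and its call is no separate support. It is still counted among the 8 called higher. CCND1, PLAUR, HBEGF and LIF, on the same list, did not pass. MMP9, MMP10 and MMP13 were below detection on all 8 arrays. The list was written with earlier results of these data known, and its direction is not independent evidence.

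**Figure D3:**
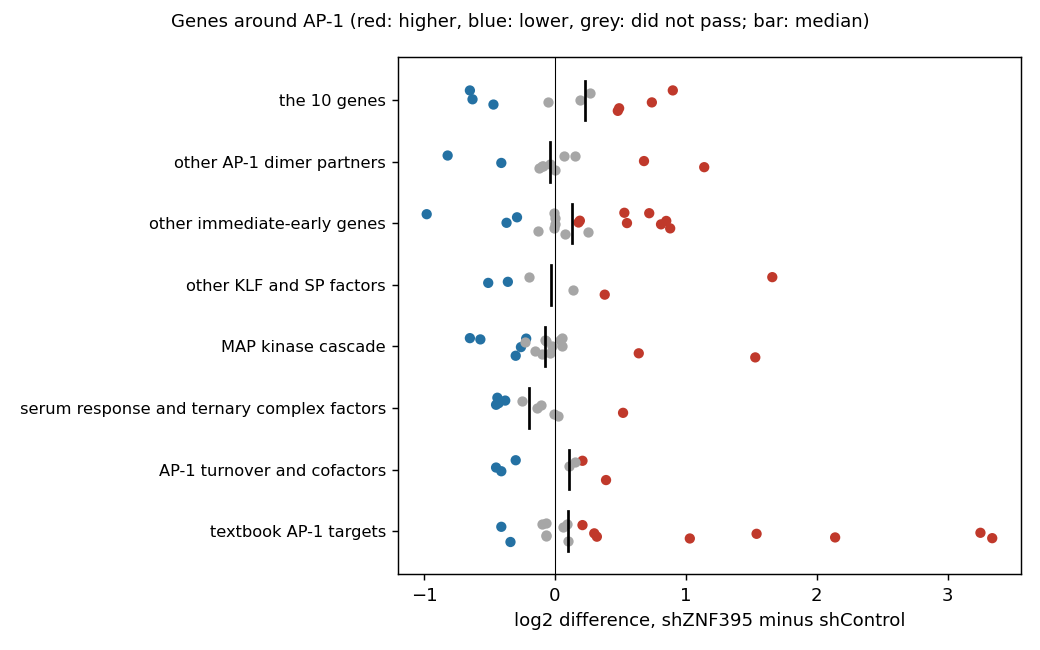
Log2 difference, shZNF395 minus shControl (horizontal axis), of the 10 genes (top) and of the measured genes of 7 surrounding lists; each point is a gene, red where called higher, blue where called lower and grey where it did not pass, and black bars are medians; genes below detection in shControl are drawn at their fitted difference. The median of the 10 genes is 0.23 and the medians of the 7 lists lie between -0.19 and 0.13. The largest rises are among the AP-1 targets, up to 3.34 for MMP3.

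Markers of other cell types were read beside these genes. Of 8 leukocyte markers 7 had a probe, and PTPRC, TYROBP, ITGAM and CD3E were below detection on all 8 arrays. The measured CD14 was higher by 1.45 and LAPTM5 did not pass, and their summed log2 level was 17.5 to 17.9 in shZNF395 cells and 15.7 to 16.3 in shControl cells. Of 6 endothelial markers CDH5, VWF and KDR were below detection on all 8 arrays, while ESAM, ROBO4 and PECAM1 were higher by 0.86, 0.49 and 0.36. Their summed level was 23.9 to 24.4 in shZNF395 cells and 22.2 to 22.9 in shControl cells. PECAM1 was detected on only 2 of 4 shControl arrays, and its groups overlapped (limma adjusted p = 0.0377). The fibroblast marker COL1A1, the 1 measured of 5, was higher by 0.29, at 8.4 to 8.46 in shZNF395 cells and 8.05 to 8.28 in shControl cells. The part of other cell types in the differences of the 10 genes was not tested.

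**Figure D4:**
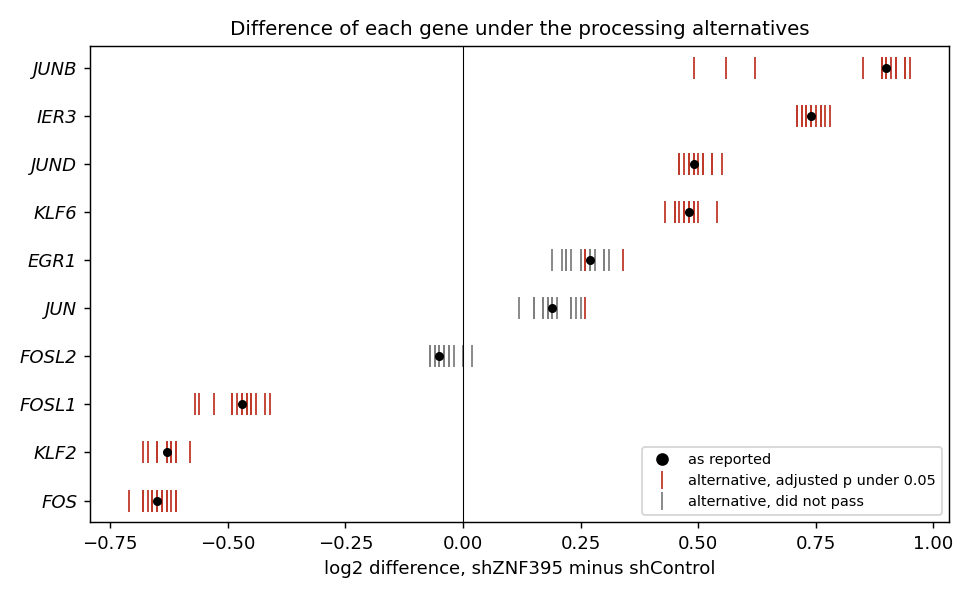
Log2 difference, shZNF395 minus shControl (horizontal axis), of each of the 10 genes as reported (black points) and under the 19 processing alternatives (ticks, red where the adjusted p is under 0.05 and grey where it is not; 18 for JUNB). The 7 called genes keep their direction and call throughout, JUNB spans 0.49 to 0.95, and EGR1 and JUN pass under some alternatives only.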

How the data were processed

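Total RNA of 8 MDA-LM2-shTARBP2 samples, 4 shZNF395 and 4 shControl, was labelled with biotin and hybridised to Illumina BeadChips, as the labels' protocols state. For every array the deposited non-normalized table gives the intensity of 47323 probes beside their detection p-value, per the file headers. The deposited series matrix has intensities normalized by the authors, linear in scale, and per the submitters' processing notes lumi was used, with no version given. The deposited fold changes are 1 value per transcript entry (39747 in all) on a log scale, close to log2 at high signal (slope 1.042).

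No deposited file pairs probes with transcripts. The pairs were found by value: the group difference of the series matrix after an inverse hyperbolic sine with 3 parameters, started from 7 presumed pairs and then refitted on all values, was matched to each deposited fold change within 1e-09. This gave 1 probe for 33125 entries (83.3%), while 0.0453% came within that tolerance after a shift. Gene names came from RefSeq (GRCh38.p14, names only). Each of the 10 genes had 1 entry and 1 probe.

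The raw intensities were corrected in limma 3.58.1 (R 4.3.3) by normexp, taking negative controls from the detection p-values, with an offset of 16, and were then quantile normalized and put on the log2 scale. Probes detected (p under 0.01) on at least 4 of 8 arrays were fitted by lmFit and eBayes. Tests are two-sided, and p-values were adjusted by Benjamini-Hochberg over all 17184 probes. A list gene is read by its brightest detected probe. Named are the 10 genes, ZNF395, up to 3 called genes of each list with the smallest p, and the 3 genes most like the gene with the largest difference, although a few list genes are left unreported. Simulated data were used to test the fit. The number of arrays limits the precision. Alternatives covered background, normalization, the authors' values, detection, weights, adjustment, the replicate number as a block and arrays left out, which were dropped after normalization over the same probes. The genes and lists were chosen with earlier results of these data known. Pairing and figures used Python 3.11.15 (numpy 2.4.6, scipy 1.17.1).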

Additional observations from a re-analysis of the deposited data

Results flagged for a closer look

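In 6 of the groups of 4 arrays examined, 1 array lay far from the other 3. Chance flags about 1 in 20 such groups, and 76 groups were examined. JUN stood at 10.58 on shControl 2, against 10.24 to 10.29 on the other shControl arrays. TRIB1 stood at 10.20 on shZNF395 2, against 10.31 to 10.32 on the other shZNF395 arrays. On shControl 1, KLF9 stood at 7.47, against 7.68 to 7.69, and SPP1, which is below detection on all shControl arrays, at 4.31, against 4.79 to 4.85. Detected probes numbered 17191 on shZNF395 3, against 16834 to 16882 on the other shZNF395 arrays, and 16476 on shControl 3, against 17265 to 17406 on the other shControl arrays.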

How the results depend on the processing

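JUNB, JUND, IER3, KLF6, FOS, FOSL1 and KLF2 kept their direction and call under every alternative run for them, 19 for each and 18 for JUNB, which is not detected on all 8 arrays. EGR1 passed without background correction (0.26), with an offset of 50 (0.26), with the authors' normalized values (0.26), with the replicate number as a block (0.27, adjusted p = 0.0187) and without shControl 2, and leaving out 1 array moved it between 0.19 and 0.34. JUN passed without shControl 2 and lay between 0.12 and 0.26 over the arrays left out. FOSL2 turned to 0.02 with cyclic loess, where it did not pass, and the cause was not tested. Members called numbered 6 to 9. Probes called fell to 4528 when only the 7739 brightest named probes were tested, since fewer probes were tested, and otherwise lay between 8472 and 10430. The genes called over the surrounding lists numbered 40 to 47, against 46. ZNF395 lay between -0.88 and -0.75. Same-numbered arrays did not deviate in the same direction (r from -0.422 to 0.005 across probes, and 0 of 4 arrays matched best with their own number). The -0.422 belongs to the arrays numbered 3. A pairing with little shared effect would not show here, so whether the numbers pair the arrays stays unknown. With the replicate block 8540 probes were called, and no call of the 10 genes but that of EGR1 changed. Signal over background limits JUNB and FOSL2.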
